A study of Mus musculus with 6 samples.

Results

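The cadherins and protocadherins described here are 57 genes out of 22180 on the array. They were chosen by symbol alone: Cdh followed by a number, Pcdh followed by a number (Pcdh11x included) and Pcdhb followed by a number, each represented by its probe set of highest mean over 6 arrays among those annotated with 1 gene symbol. Total RNA of 6 mouse cell samples was hybridised, with 1 array per condition. The conditions were embryonic fibroblasts (MEF), such fibroblasts on days 3, 7 and 14 of induction to parvalbumin neurons (iPV), day 14 iPV cells sorted as GFP+, and neurons labelled as endogenous parvalbumin (PV) ones. All 6 came from PV-GFP transgenic C57BL/6 mice, a line in which a transgene marks parvalbumin cells with green fluorescent protein, and the labels give embryos of 13.5 days for each, the sample labelled endogenous PV included. The labels describe adenovirus infection as the induction step and carry that text for all 6 samples. The sources used here do not give the genes delivered by the virus, the promoter of the transgene or the number of animals per sample.

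Cadherins are transmembrane proteins that hold cells together in the presence of calcium. The classical cadherins of type I and type II bind catenins inside the cell, which link them to actin; type I members glue tissue layers, and type II members are used in combinations by neurons and mesenchyme. Protocadherins adhere more weakly. Those of the delta group are expressed in restricted brain regions and several of them recruit the WAVE complex of actin assembly, while the clustered protocadherins are switched on in differing combinations in single neurons and let a neuron tell its own branches from those of others.

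Values are log2 intensities. A value below 5.01, the median over non-control probe sets, was raised to that floor before a difference was taken, so a fold that involves a floored value is a minimum and is written "at least". A gene was called at a log2 difference of 1 or more, which is 2-fold. With 1 array per group no test is possible and no difference has a replicate check. The only error that could be measured was between the 2 brightest probe sets of 1 gene. Their log2 differences between 2 arrays were subtracted, and the standard deviation of the result was divided by the square root of 2. This gave 0.27 to 0.50 for a single probe set, over 327 to 403 genes with both probe sets above the floor on both arrays. It leaves out variation between cultures and animals, and values under the floor. In RNA from a whole sample, fewer cells of a type and less RNA per cell cannot be told apart.

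The array labelled endogenous PV went against its label. Pvalb, which encodes parvalbumin, had 5.48 there, and the GABA genes Gad1, Gad2 and Slc32a1 had 5.13, 4.09 and 5.05, while the collagen gene Col1a1 had 12.34, against 12.31 in MEF. It is called the array labelled endogenous PV throughout, and each result that rests on it describes that array only. The array of sorted cells had Gad1, Gad2 and Slc32a1 under the floor, at 4.68, 4.49 and 4.46, and had Col1a1 at 12.39. Pvalb was 6.29 in sorted cells and 5.23 in MEF. Macrophage markers also separated the arrays. The summed linear intensity of 8 such markers was 1736.5 in MEF, 366.4 on day 3, 677.5 on day 7 and 667.3 on day 14, with 377.5 after sorting and 2161.2 for the array labelled endogenous PV, and Ptprc, the pan-leukocyte marker, was under the floor on all 6. The part of what these markers measure in the results below was not tested.

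Of the 57 genes, 42 were above the floor on at least 1 array (73.7%), against 14295 of all 22180 genes (64.4%). Of these 42, 18 were above it on all 6 arrays, and 15 others of the 57 stayed under it everywhere. In 8 comparisons of array against array, 15 genes were called at least once, in 37 calls. The share of all genes called at least once was not counted, so nothing is read from this total. The shares per comparison follow. At day 3, 7 of 57 members differed 2-fold from MEF, 5 higher and 2 lower, a share of 12.3% where 3.07% of all genes did. Between days 7 and 3 the count was 0 of 57, with 1.83% of all genes called (1.3% higher and 0.528% lower on day 7). Day 14 had 1 higher and 1 lower member against day 7, a share of 3.51%, with 1.43% of all genes called (0.604% higher and 0.825% lower). Against MEF, day 14 had 3 higher and 2 lower members, or 8.77% of them, where 3.36% of all genes were called. Sorted cells had 10 higher and 2 lower members against MEF, 21.1% of the 57, where 5.31% of all genes were called. Against unsorted day 14 cells they had 2 higher and 1 lower, 5.26% of the members, where 1.87% of all genes were called (1.26% higher and 0.609% lower). The array labelled endogenous PV had 6 higher and 1 lower member against MEF, 12.3% of them, where 3.1% of all genes were called (2.13% higher and 0.969% lower), and sorted cells differed from it in 1 member (1.75%), where 2.5% of all genes were called (1.36% higher and 1.14% lower). With the floor at the median, the members' share was above the background in all 4 comparisons with MEF. Those 4 comparisons share the MEF array. The other 4 comparisons rest on 0 to 3 called members each. The median difference over the 57 members was 0.0 in each of the 8 comparisons, as it was over all genes. The floor sets a gene under it on both arrays to 0 difference, which holds for 15 of the members in every comparison. These medians therefore do not show whether the members shifted as a group.

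**Figure D1:**
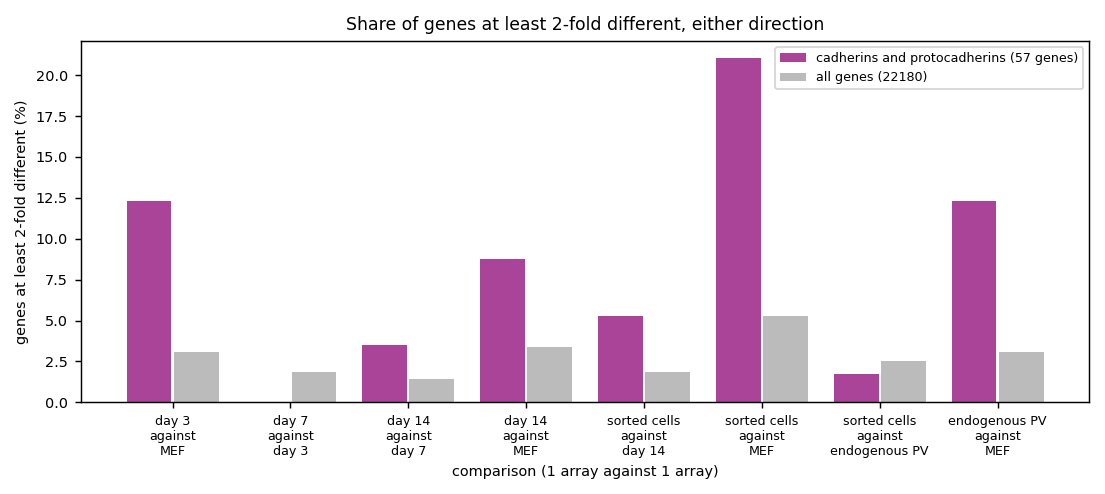
Share of genes at least 2-fold different in either direction (vertical axis, %) in 8 comparisons of 1 array against 1 array, for the 57 cadherins and protocadherins (purple) and for all 22180 genes (grey). The purple bar is the taller in all comparisons but day 7 against day 3, where it is 0, and sorted cells against the array labelled endogenous PV.

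The split between higher and lower members depended in part on the scaling. Centring each array on 22 housekeeping genes moved the median of all genes, taken without the floor, to -0.26 for day 3, -0.46 for day 14, -0.31 for sorted cells and -0.28 for the array labelled endogenous PV, each against MEF, and to 0.17 for sorted against day 14 cells. Under it the split was still 5 higher and 2 lower at day 3, but 1 higher and 4 lower at day 14, 8 higher and 5 lower in sorted cells and 3 higher and 1 lower on the array labelled endogenous PV. All genes split under it into 194 higher and 754 lower at day 3, and 180 and 1108 at day 14. The split of all genes was 440 and 783 in sorted cells, and 254 and 560 on the array labelled endogenous PV. Sorted against day 14 cells had 3 higher and 1 lower member under housekeeping centring, with Pcdh17 added at 1.14, where 465 of all genes were higher and 73 lower. Quantile normalization gave 10 higher and 4 lower for sorted cells against MEF, 1 higher and 1 lower for sorted against day 14 cells, and 0 higher and 1 lower for day 14 against day 7. All genes split there into 636 and 466, 236 and 145, and 119 and 204. The genes that these scalings added or removed are given where they are described.

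**Figure D2:**
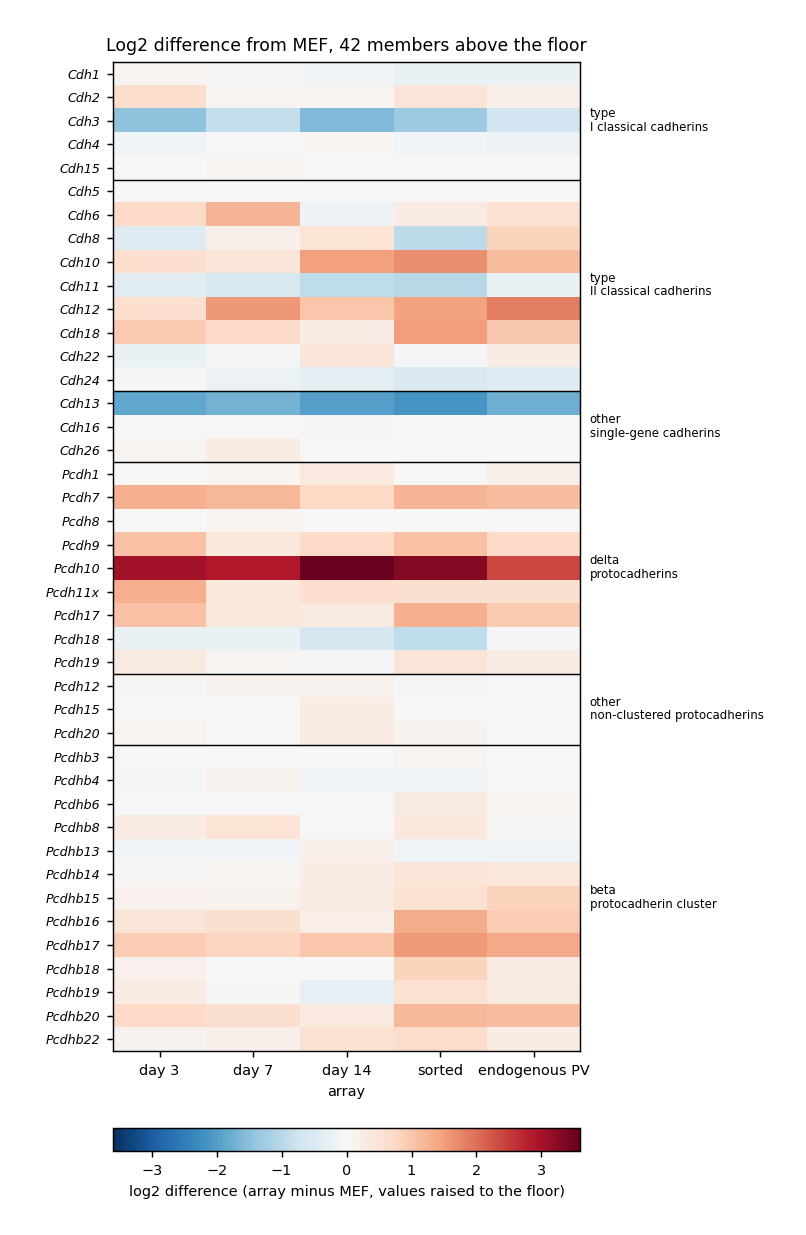
Log2 difference of each of the other 5 arrays from MEF (colour, red for higher and blue for lower than MEF, values raised to the floor) for the 42 members that exceeded the floor anywhere, grouped by family. Pcdh10 has the deepest red row and Cdh13 the deepest blue one, and the red cells of the beta cluster lie among its last genes, Pcdhb14 to Pcdhb22.

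All 5 members called higher at day 3 were delta protocadherins. Of the 9 genes of this group, 5 were at least 2-fold higher than in MEF and 0 lower, where 1.43% of all genes were higher, and their median difference was 1.05, against 0.0 over all genes. At day 14 the median against MEF was 0.36 with 1 gene called higher and 0 lower, where 2.1% of all genes were higher; housekeeping centring took it to 0.13, with 1 higher and 1 lower. After sorting the median was 0.59 with 4 higher and 0 lower, where 3.67% of all genes were higher. Pcdh18 was added as lower there by quantile normalization (-1.07) and by housekeeping centring (-1.22), which also took Pcdh7 under 2-fold (0.92). For the array labelled endogenous PV the median was 0.57 with 2 higher and 0 lower, where 2.13% of all genes were higher. Pcdh7 was lost there after quantile normalization (0.996) and after housekeeping centring (0.82). Of the macrophage markers, 5 of 8 were at least 2-fold lower at day 3 than in MEF, as were 3 of 8 fibroblast markers. Of all genes, 1.64% were lower there. The part of these markers in the result was not tested. Pcdh10, a protocadherin that recruits the WAVE complex and guides growing axons, had 5.05 in MEF, 8.08 on day 3, 7.92 on day 7 and 8.61 on day 14, with 8.35 after sorting and 7.44 for the array labelled endogenous PV. The MEF value lay just above the floor and below the median of its own array, 5.06, while the other 5 arrays stood well clear of both. The folds from MEF are therefore given as minima. The log2 difference was 3.02 at day 3, or at least 8.14-fold, and 3.56 at day 14, or at least 11.8-fold. In sorted cells it was 3.30, or at least 9.86-fold, and on the array labelled endogenous PV 2.39, or at least 5.25-fold. With the floor at percentile 75 of all probe sets the differences were 1.49 at day 3, 2.03 at day 14 and 1.77 in sorted cells, and the array labelled endogenous PV was no longer called, at 0.86. Pcdh10 was the only member past 4-fold at day 3, at day 14 and on the array labelled endogenous PV against MEF; in sorted cells Cdh13, described below, was past it too.

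The promoters of 4 of these 5 genes are shown because the genes were higher together at day 3, and Pcdh11x is not shown. They come from RefSeq on GRCm38.p6, run from 250 bases before to 50 after the annotated start, and are written 5′ to 3′ on the gene's strand with every CpG dinucleotide in capitals. Their places are chr3:45378148-45378447 on the plus strand for Pcdh10, chr14:84443313-84443612 on the plus strand for Pcdh17, chr14:93890620-93890919 on the minus strand for Pcdh9, whose table entries overlap and of which 1 is shown, and chr5:57717831-57718130 on the plus strand for Pcdh7.
Pcdh10: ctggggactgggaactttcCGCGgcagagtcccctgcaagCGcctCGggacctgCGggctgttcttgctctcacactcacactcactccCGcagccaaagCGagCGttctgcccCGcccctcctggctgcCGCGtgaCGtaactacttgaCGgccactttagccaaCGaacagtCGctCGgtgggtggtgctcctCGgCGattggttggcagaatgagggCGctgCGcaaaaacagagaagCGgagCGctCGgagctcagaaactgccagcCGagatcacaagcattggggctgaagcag
Pcdh17: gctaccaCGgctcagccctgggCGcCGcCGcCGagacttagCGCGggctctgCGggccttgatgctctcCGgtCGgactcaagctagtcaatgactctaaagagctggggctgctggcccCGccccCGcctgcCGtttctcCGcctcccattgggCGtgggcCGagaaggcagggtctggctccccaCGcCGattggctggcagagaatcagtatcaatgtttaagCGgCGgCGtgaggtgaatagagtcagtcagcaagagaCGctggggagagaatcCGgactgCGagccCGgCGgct
Pcdh9: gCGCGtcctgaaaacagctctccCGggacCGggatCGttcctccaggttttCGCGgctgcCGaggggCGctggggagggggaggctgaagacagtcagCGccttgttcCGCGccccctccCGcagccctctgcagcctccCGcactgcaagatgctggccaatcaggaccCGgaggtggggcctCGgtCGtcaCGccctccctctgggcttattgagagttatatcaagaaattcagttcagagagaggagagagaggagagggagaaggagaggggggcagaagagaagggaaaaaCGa
Pcdh7: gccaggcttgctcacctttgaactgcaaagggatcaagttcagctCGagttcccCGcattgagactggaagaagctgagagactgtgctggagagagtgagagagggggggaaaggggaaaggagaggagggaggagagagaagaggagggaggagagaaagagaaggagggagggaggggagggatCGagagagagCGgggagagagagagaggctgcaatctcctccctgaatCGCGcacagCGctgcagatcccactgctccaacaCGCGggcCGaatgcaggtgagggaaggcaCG
CpG dinucleotides numbered 24 in Pcdh10, 26 in Pcdh17, 19 in Pcdh9 and 11 in Pcdh7, where the median over 32851 promoters of the same length was 7. A GC box, CCGCCC on either strand, occurred in the windows of Pcdh10 and Pcdh17 and in 35.7% of all promoters. An E-box CAGCTG, found in 16.3% of all promoters, a cAMP response element TGACGTCA, found in 1.79%, and a TATA box TATAAA, found in 13.6%, had no match in any of the 4 windows. Of the delta genes never called, Pcdh18, Pcdh19 and Pcdh8 had 23, 18 and 14 CpG dinucleotides, also above the median of 7. The GC box was in the windows of Pcdh18 and Pcdh19 too, so neither trait was particular to the called genes. A match is a string of letters and not a bound site.

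Pcdh7, a member of the delta-1 subgroup that is broadly expressed in mesenchyme as well as brain, had 7.78 in MEF, 9.07 on day 3, 8.98 on day 7 and 8.51 on day 14, with 9.02 after sorting and 8.89 for the array labelled endogenous PV. MEF was the lowest array. The difference from MEF was 1.28 at day 3, 1.23 after sorting and 1.11 on the array labelled endogenous PV, and the differences of sorted cells and of the array labelled endogenous PV were under 2-fold after housekeeping centring, at 0.92 and 0.82. Quantile normalization put the array labelled endogenous PV just under the threshold, at 0.996.

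The other 3 genes of the delta group called at day 3 were under the floor in MEF, so their folds are lower bounds. Pcdh17, which sits at synapses of the basal ganglia, had 4.52 in MEF, 6.06 on day 3, 5.43 on day 7 and 5.33 on day 14, with 6.28 after sorting and 5.96 for the array labelled endogenous PV. Pcdh9, another delta-1 gene, had 4.64 in MEF, 6.07 on day 3, 5.39 on day 7 and 5.69 on day 14, with 6.07 after sorting and 5.70 for the array labelled endogenous PV. Both were lowest in MEF, and high at day 3 and in sorted cells with the day 7 and day 14 arrays between. At day 3 Pcdh17 was at least 2.08-fold and Pcdh9 at least 2.08-fold higher than in MEF; in sorted cells they were at least 2.41-fold and at least 2.08-fold higher. Pcdh11x, an X-linked delta-1 gene, had 4.47 in MEF, 6.32 on day 3, 5.40 on day 7 and 5.62 on day 14, with 5.60 after sorting and 5.58 for the array labelled endogenous PV. It was at least 2.47-fold higher at day 3 than in MEF, and day 3 was its highest array. Housekeeping centring made it the 1 member called between days 7 and 3, at -1.09.

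The 4 remaining delta genes were never called. Pcdh18, which is expressed in embryonic mesenchyme and brain, had 8.32 in MEF, 8.08 on day 3, 8.09 on day 7 and 7.72 on day 14, with 7.41 after sorting and 8.29 for the array labelled endogenous PV. Sorted cells were the lowest array, and their difference from MEF of -0.91 became -1.07 after quantile normalization and -1.22 after housekeeping centring, which also brought day 14 to -1.10. Pcdh10 and Pcdh18 are close on chromosome 3, with 1 protein-coding gene between them in the RefSeq table, and in sorted cells Pcdh10 was 3.30 above MEF where Pcdh18 differed by -0.91. Pcdh19, an X-linked delta-2 gene whose human counterpart is mutated in an epilepsy, stayed between 7.22 at day 14 and 7.71 in sorted cells. Pcdh1, known from airway epithelium, lay between 4.76 and 5.37 and Pcdh8, an activity-regulated protocadherin of hippocampal synapses, between 4.34 and 5.10, both around the floor.

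**Figure D3:**
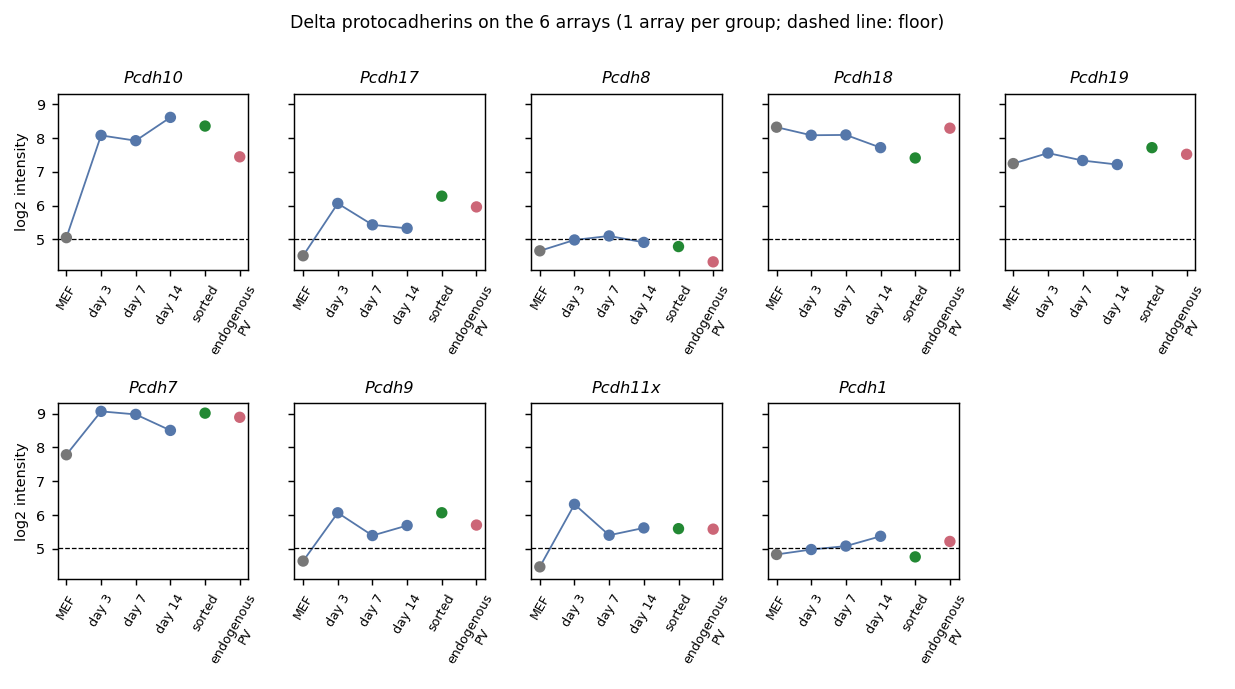
Log2 intensity (vertical axis) of the 9 delta protocadherins on each of the 6 arrays, 1 point per array, with the days joined by a line from MEF and the floor dashed. Pcdh10 lies between 7.44 and 8.61 on the other arrays, against 5.05 in MEF, while Pcdh18 and Pcdh19 stay within 1 unit.

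Of the 13 type II classical cadherins, 0 were called against MEF at day 3, 2 were higher at day 14 and 3 were higher in sorted cells. The background of higher genes was 2.1% at day 14 and 3.67% in sorted cells, both against MEF. Housekeeping centring took both day 14 calls, Cdh10 and Cdh12, under 2-fold (0.98 and 0.82) and added Cdh11 as lower there (-1.40). In sorted cells it added Cdh11 (-1.30) and Cdh8 (-1.25) as lower. Quantile normalization added Cdh11 as lower in sorted cells (-1.004). The 3 genes called higher, Cdh10, Cdh12 and Cdh18, are neighbours on chromosome 15. In the RefSeq table Cdh6, Cdh9, Cdh10 and Cdh12 follow each other there with 0 protein-coding genes between, and 1 lies between Cdh12 and Cdh18. These cadherins are known mainly from the brain, where Cdh9 and Cdh10 take part in choosing synaptic partners.

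Cdh10 had 5.90 in MEF, 6.51 on day 3, 6.33 on day 7 and 7.38 on day 14, with 7.58 after sorting and 7.05 for the array labelled endogenous PV. The earlier arrays lay together and the last 3 stood above them. The difference from MEF was 1.47 at day 14, 1.68 after sorting and 1.15 on the array labelled endogenous PV, and day 14 exceeded day 7 by 1.05. Housekeeping centring reduced the day 14 difference from MEF to 0.98 and that of the array labelled endogenous PV to 0.86, and quantile normalization reduced the difference from day 7 to 0.99. Cdh12 had 3.14 in MEF, 5.63 on day 3, 6.58 on day 7 and 6.02 on day 14, with 6.47 after sorting and 6.84 for the array labelled endogenous PV. MEF alone was under the floor, so Cdh12 was at least 2.01-fold higher at day 14, at least 2.74-fold in sorted cells and at least 3.55-fold on the array labelled endogenous PV. Without a floor the day 3 array would be called too, at 2.49, and housekeeping centring took day 14 to 0.82. Cdh18 had 5.60 in MEF, 6.54 on day 3, 6.30 on day 7 and 5.86 on day 14, with 7.09 after sorting and 6.56 for the array labelled endogenous PV. Sorted cells were its highest array, above MEF by 1.49 and above unsorted day 14 cells by 1.23, or 2.35-fold.

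The promoters of these 3 neighbours are shown because the genes are neighbours that were higher together in sorted cells. They lie at chr15:18820079-18820378, chr15:21111202-21111501 and chr15:23036213-23036512 on GRCm38.p6, all on the plus strand, with CpG dinucleotides again in capitals.
Cdh10: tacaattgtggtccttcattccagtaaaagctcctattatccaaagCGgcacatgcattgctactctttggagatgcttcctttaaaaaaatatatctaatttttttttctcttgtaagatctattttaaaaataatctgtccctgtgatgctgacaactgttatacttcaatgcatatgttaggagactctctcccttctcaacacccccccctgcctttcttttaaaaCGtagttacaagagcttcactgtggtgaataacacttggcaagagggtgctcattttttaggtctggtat
Cdh12: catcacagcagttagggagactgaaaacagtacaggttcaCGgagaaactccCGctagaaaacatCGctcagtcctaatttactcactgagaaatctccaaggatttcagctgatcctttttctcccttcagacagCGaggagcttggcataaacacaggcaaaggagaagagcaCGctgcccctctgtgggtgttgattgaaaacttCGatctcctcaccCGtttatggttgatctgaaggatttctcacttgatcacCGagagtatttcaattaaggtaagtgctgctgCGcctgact
Cdh18: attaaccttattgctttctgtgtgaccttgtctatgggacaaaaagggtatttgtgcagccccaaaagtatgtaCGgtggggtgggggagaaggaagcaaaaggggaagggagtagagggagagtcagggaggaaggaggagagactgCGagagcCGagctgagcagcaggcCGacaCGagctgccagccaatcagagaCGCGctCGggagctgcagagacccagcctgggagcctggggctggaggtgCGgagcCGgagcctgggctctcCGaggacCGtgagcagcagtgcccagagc
They held 2 CpG dinucleotides in Cdh10, 9 in Cdh12 and 12 in Cdh18. The E-box CAGCTG occurred once, in Cdh12, and none of the 3 windows held the GC box, the cAMP response element or the TATA box searched above. The windows of Cdh9 and Cdh6, the other genes of this run, are not shown and held 8 CpG dinucleotides each. Cdh9, under the floor on all 6 arrays, also had 1 E-box, and Cdh6 had 2 GC boxes. These are windows at 1 annotated start per gene, and the start used in these cells was not measured.

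The other 2 genes of this run on chromosome 15 were not called higher in any of the 8 comparisons. Cdh9 was under the floor on all 6 arrays, between 3.08 and 3.996. Cdh6, a cadherin of kidney, neural crest and glia, had 5.52 in MEF, 6.22 on day 3, 6.75 on day 7 and 5.33 on day 14, with 5.82 after sorting and 6.09 for the array labelled endogenous PV. It was highest at day 7, and day 14 was 2.68-fold lower than day 7, a difference of -1.42, where 0.825% of all genes were lower.

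On chromosome 8, Cdh8, Cdh11 and Cdh5 also follow each other with 0 protein-coding genes between. Cdh8, a synaptic cadherin of cortex and striatum, had 6.19 in MEF, 5.73 on day 3, 6.39 on day 7 and 6.68 on day 14, with 5.25 after sorting and 6.99 for the array labelled endogenous PV. Sorted cells were the lowest, 2.69-fold below unsorted day 14 cells (-1.43) and 3.32-fold below the array labelled endogenous PV (-1.73), the only member called in that last comparison. Against MEF, sorted cells were called lower for Cdh8 after housekeeping centring alone, at -1.25. In sorted cells Cdh8 was low where Cdh10 and Cdh18, also brain cadherins of type II, were at their highest. Cdh11, the mesenchymal cadherin of fibroblasts and osteoblasts, had 11.41 in MEF, 11.03 on day 3, 10.84 on day 7 and 10.51 on day 14, with 10.42 after sorting and 11.18 for the array labelled endogenous PV. It was lower at each later day, and its difference from MEF was -0.90 at day 14 and -0.99 in sorted cells, just short of the threshold. It passed in sorted cells after quantile normalization (-1.004) and after housekeeping centring (-1.30), and at day 14 after housekeeping centring (-1.40). Cdh24 stayed within 5.79 (sorted cells) to 6.30 (MEF), and Cdh22, a brain cadherin, between 4.95 and 5.69. Cdh7, Cdh19 and Cdh20 were under the floor on every array.

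Among the type I cadherins, Cdh3 was the 1 of 5 called. Cdh3, the P-cadherin of placenta and basal epithelia, had 8.73 in MEF, 7.28 on day 3, 7.87 on day 7 and 7.15 on day 14, with 7.42 after sorting and 8.04 for the array labelled endogenous PV. MEF was the highest array and the array labelled endogenous PV came next. Cdh3 was 2.73-fold lower at day 3 than in MEF (-1.45), 3.00-fold lower at day 14 (-1.58) and 2.48-fold lower in sorted cells (-1.31), where 1.64% of all genes were lower at day 3, 1.26% at day 14 and 1.64% in sorted cells. Its neighbour Cdh1, the E-cadherin of epithelia, stayed within 4.85 (sorted cells) to 5.32 (day 3), around the floor. Cdh2, the N-cadherin of neurons and fibroblasts, had 8.95 in MEF, 9.58 on day 3, 9.06 on day 7 and 9.05 on day 14, with 9.41 after sorting and 9.12 for the array labelled endogenous PV. Its difference from MEF reached 0.63 at day 3 and stayed under 2-fold in all 8 comparisons. Cdh4, the retinal R-cadherin, lay between 5.47 and 5.73 and Cdh15, the M-cadherin of muscle, between 4.42 and 5.10.

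Of the 5 single-gene cadherins outside both types, Cdh13 was called and in every comparison with MEF. Cdh13, or T-cadherin, lacks the part that spans the membrane, is anchored by a lipid and binds adiponectin. It had 7.13 in MEF, 5.27 on day 3, 5.43 on day 7 and 5.16 on day 14, with 4.84 after sorting and 5.38 for the array labelled endogenous PV. MEF stood alone and the other 5 arrays lay near or under the floor. Cdh13 was 3.64-fold lower at day 3 (-1.86), 3.92-fold lower at day 14 (-1.97), at least 4.34-fold lower in sorted cells (-2.12) and 3.37-fold lower on the array labelled endogenous PV (-1.75), the rank 21 decrease of all genes there, where 0.969% were called lower. Cdh16, a kidney cadherin, lay between 4.36 and 5.05 and Cdh26 between 4.33 and 5.28, around the floor. Cdh17, the cadherin of liver and intestine, and Cdh23, a component of hair cell tip links, were under it on all 6 arrays, at most 4.52.

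**Figure D4:**
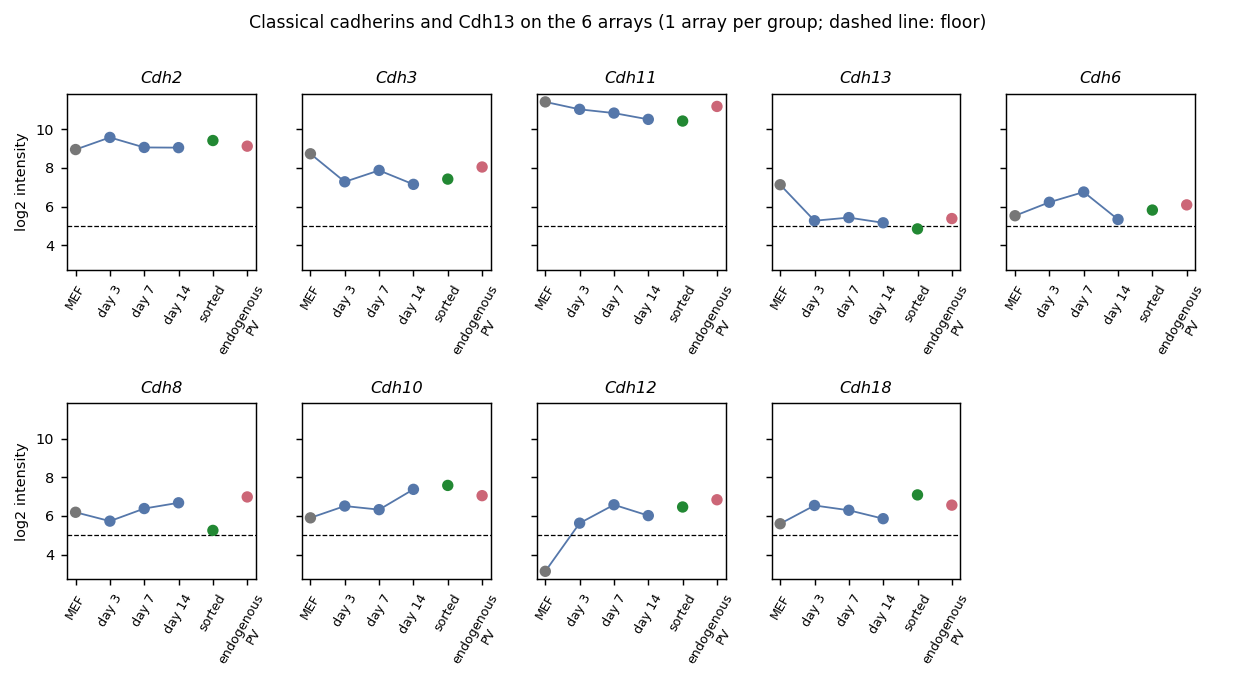
Log2 intensity (vertical axis) of 9 classical and other cadherins on each of the 6 arrays, 1 point per array, with the days joined by a line from MEF and the floor dashed. Cdh3 and Cdh13 are highest in MEF, Cdh10 and Cdh18 are highest in sorted cells, and Cdh8 is lowest in sorted cells.

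Several cadherins are used as markers of a cell type, so the fixed marker lists of those types were read beside them. Cdh5, the cadherin of endothelial junctions, exceeded the floor only at day 14 with 5.03, and of 8 endothelial markers 5 were under it on all 6 arrays, namely Tek, Tie1, Emcn, Cldn5 and Vwf. The other 3 were measured: Kdr had 6.45 in MEF and 5.29 to 5.71 on the other arrays, called lower on the array labelled endogenous PV (-1.14), Egfl7 had 5.38 to 6.00 and Pecam1 reached 5.16. Beside Cdh1, 4 of 9 epithelial markers were under the floor everywhere, namely Epcam, Cldn7, Esrp1 and Grhl2. Krt8, at 6.01 to 6.28, and Cldn3, at 5.64 to 5.86, were above it on all 6 arrays, Krt18 reached 5.43 and Cldn4 5.02. Krt19 had 6.02 at day 14, against 4.90 in MEF, and was called higher there than in MEF (1.01) and lower after sorting than at day 14 (-1.01). It was under the floor in MEF and in sorted cells (4.82), and both calls were lost after housekeeping centring, at 0.63 and -0.82. Cdh19, a marker of Schwann cell precursors, was at most 3.38, and of 4 glial markers measured Erbb3 and S100b were under the floor throughout, Sox10 reached 5.26 and Foxd3 lay between 5.28 and 5.84. Beside Cdh15, 2 of 7 skeletal muscle genes, Actn2 and Myh3, were under the floor everywhere. Myod1 lay between 5.08 and 5.76, Myf5 reached 5.31 and Pax7 5.76, and Myog had 6.01 at day 7, against 5.004 at day 3, a difference of 1.001 that was 0.995 after quantile normalization. The intermediate filament gene Des, shared with smooth muscle, had 8.42 in sorted cells against 5.25 in MEF. In sorted cells, 4 of 10 neuron markers were at least 2-fold higher than in MEF, 3.67% of all genes being so, a count that was 3 after quantile normalization and 2 after housekeeping centring. Under all 3 scalings it held Nefl, a neurofilament, and Snap25, a protein of synaptic vesicle fusion, at 8.05 in sorted cells against 4.44 in MEF. The others called were Syt1 at 1.003, lost after quantile normalization (0.95) and housekeeping centring (0.69), and Pvalb at 1.06, lost after housekeeping centring (0.75). The median difference of the 10 from MEF was 0.03, and Stmn2 and Gad1 differed by -0.18 each. The summed linear intensity of the 10 was 802.8 in sorted cells and 418.8 in MEF, and Dcx, Elavl4 and Gad2 were under the floor on all 6 arrays. The fibroblast markers summed to 25456.6 in sorted cells and 25702.3 in MEF, with 1 of 8 lower, where 1.64% of all genes were lower. The sort was for fluorescence of the transgene, and the part of cell mixture in the differences of sorted cells was not tested.

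Of the beta protocadherins all 22 genes had a probe set, 13 were above the floor on at least 1 array and 5 on all 6, namely Pcdhb16, Pcdhb17, Pcdhb19, Pcdhb20 and Pcdhb22. Of the 9 genes from Pcdhb14 to Pcdhb22, 8 were above the floor somewhere, and of the 13 genes from Pcdhb1 to Pcdhb13, 5 were, 0 of them on all arrays. This division of the cluster was chosen after the values were seen. These genes are similar in sequence, and whether a probe set also reads a neighbouring gene was not tested. The medians that follow count genes under the floor as 0 difference. Over Pcdhb14 to Pcdhb22 the median difference from MEF was 0.66 in sorted cells with 8 of 9 above 0, and 0.40 on the array labelled endogenous PV with 8 of 9 above 0. After housekeeping centring these medians were 0.43 and 0.42. At day 14 the median was 0.26, which turned to -0.07 after housekeeping centring, so no direction is given for that day. Sorted cells exceeded unsorted day 14 cells by a median of 0.53 over the 9, which was 0.45 after quantile normalization and 0.72 after housekeeping centring. Over Pcdhb1 to Pcdhb13 the median was 0.0 in each of these comparisons, and differences of sorted cells from MEF ran from -0.13 to 0.38. The floor sets 8 of these 13 genes to 0 difference. Without a floor, sorted cells differed from MEF by -0.22 to 1.03 over Pcdhb1 to Pcdhb13, with a median of -0.02 and 6 of 13 above 0. The highest were Pcdhb3 at 1.03 and Pcdhb2 at 0.66. Over Pcdhb14 to Pcdhb22 the same differences ran from 0.56 to 1.53, with a median of 0.92.

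The called beta genes were 3 of 22, all higher in sorted cells than in MEF, where 3.67% of all genes were higher. Housekeeping centring left 2 of 22. Pcdhb17 had 5.37 in MEF, 6.28 on day 3, 6.15 on day 7 and 6.37 on day 14, with 6.90 after sorting and 6.75 for the array labelled endogenous PV, a difference from MEF of 1.53 after sorting and 1.38 on the array labelled endogenous PV. At day 14 it was 0.99, and 1.01 after quantile normalization. Pcdhb20 had 5.59 in MEF, 6.28 on day 3, 6.18 on day 7 and 5.95 on day 14, with 6.76 after sorting and 6.71 for the array labelled endogenous PV. It exceeded MEF by 1.17 after sorting and 1.12 on the array labelled endogenous PV, which housekeeping centring reduced to 0.86 and 0.83. Pcdhb16 had 5.37 in MEF, 5.83 on day 3, 5.95 on day 7 and 5.62 on day 14, with 6.71 after sorting and 6.30 for the array labelled endogenous PV. In sorted cells it was above MEF by 1.33 and above unsorted day 14 cells by 1.09, the last being 0.96 after quantile normalization. All 3 were lowest in MEF and highest in sorted cells. In the same stretch Pcdhb14, Pcdhb18, Pcdhb19 and Pcdhb22 were also highest in sorted cells. Pcdhb14 had 5.44 there against 4.70 in MEF, Pcdhb18 had 5.82 against 4.77 in MEF, Pcdhb19 had 6.01 against 5.44 in MEF and Pcdhb22 had 6.08 against 5.42 in MEF. Pcdhb15 was highest on the array labelled endogenous PV, at 5.84, against 4.97 in MEF. None of these 5 reached 2-fold above the floor. In the earlier stretch Pcdhb3, Pcdhb4, Pcdhb6, Pcdhb8 and Pcdhb13 exceeded the floor on 1 to 5 arrays and reached at most 5.51, in Pcdhb8 at day 7. The other beta genes, Pcdhb1, Pcdhb2, Pcdhb5, Pcdhb7, Pcdhb9, Pcdhb10, Pcdhb11, Pcdhb12 and Pcdhb21, were under the floor on all 6 arrays, between 1.96 and 5.002.

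**Figure D5:**
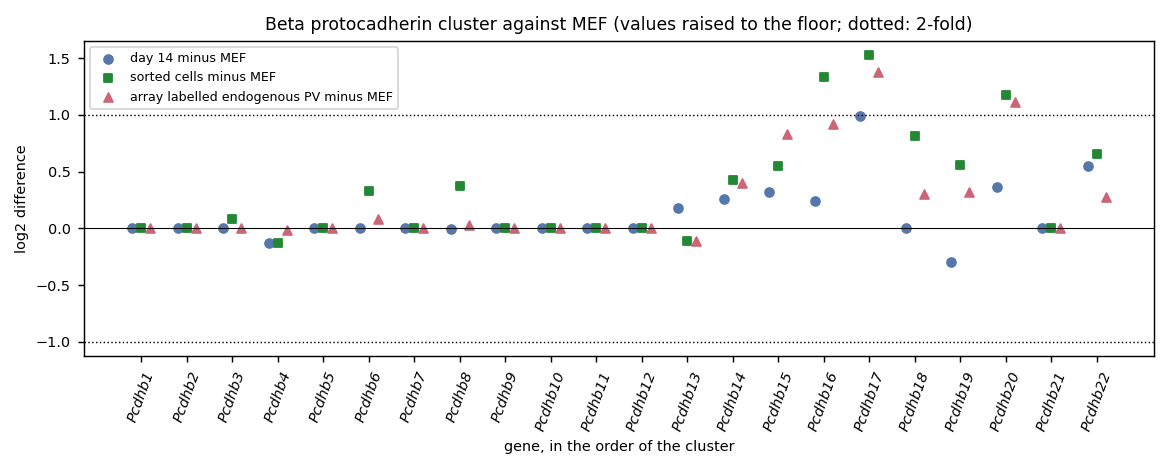
Log2 difference from MEF (vertical axis) of the 22 beta protocadherins in the order of the cluster (horizontal axis), for day 14 (circles), sorted cells (squares) and the array labelled endogenous PV (triangles), values raised to the floor, with dotted lines at 2-fold. The squares above 1 are Pcdhb16, Pcdhb17 and Pcdhb20.

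The gamma protocadherin Pcdhga10, the only gene of the alpha and gamma clusters with a probe set of 1 symbol here, had 7.89 in MEF, 8.16 on day 3, 7.74 on day 7 and 7.25 on day 14, with 8.27 after sorting and 7.74 for the array labelled endogenous PV. Like Pcdhb16 it was higher in sorted than in unsorted day 14 cells, by 1.02, which was 0.99 after quantile normalization. Of 10 genes known to regulate the protocadherin clusters, 1 was higher and 1 lower in sorted cells than in MEF, where 3.67% of all genes were higher and 1.64% lower. Smc3, a cohesin subunit, had 8.06 in sorted cells, against 9.12 in MEF, a difference of -1.06. Setdb1, a histone methyltransferase that silences cluster genes in mouse neurons, had 7.61 in sorted cells, against 6.54 in MEF and 6.41 at day 14. Its difference from MEF, 1.07, was 0.91 after quantile normalization and 0.76 after housekeeping centring. The other protocadherins that stand alone, Pcdh12 of endothelium, Pcdh15 of hair cells and Pcdh20, lay between 4.42 and 5.27 on all arrays, and 0 of 3 were called.

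Among the partners of cadherins inside the cell, of 13 catenins and plakophilins 0 were called at day 3 and 1 was higher in both day 14 and sorted cells against MEF, namely Arvcf, a catenin of the p120 family, with 6.92 at day 14 and 6.99 in sorted cells against 5.81 in MEF. Of all genes, 2.1% were higher at day 14 and 3.67% in sorted cells, and both Arvcf calls were lost after housekeeping centring, at 0.62 and 0.87, which added Ctnnal1 as lower at day 14 (-1.24). Neither core catenin was called. Ctnnb1, beta-catenin, lay between 9.41 in MEF and 10.05 in sorted cells, and Ctnna1, alpha-catenin, between 8.59 and 9.32. Pkp2, a plakophilin of desmosomes, was higher by 1.25 at day 14 than at day 7, where 0.604% of all genes were higher. Of 13 linkers of the adherens junction, 1 was called, Tjp1, with 9.94 in sorted cells against 8.90 at day 14, where 1.26% of all genes were higher. Of 9 genes for proteases that cut cadherins, ADAMs and the gamma-secretase complex, 0 were called in any of the 8 comparisons. Of 6 genes for nectins, afadin and the related Pvr, 1 was called, Nectin3, lower in sorted cells than in MEF by -1.15, where 1.64% of all genes were lower. Among 10 repressors of Cdh1, Twist2 was above MEF by 1.34 at day 3 and below day 3 by -1.65 at day 7. Of all genes, 1.43% were higher in the first of these comparisons and 0.528% lower in the second. Foxc2 was above MEF by 1.01 in sorted cells, where 3.67% of all genes were higher, a call lost after quantile normalization (0.97) and housekeeping centring (0.70).

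In the WAVE complex, through which Pcdh10, Pcdh17 and Pcdh19 act on actin, 2 of 8 measured genes were higher in sorted cells than in MEF, where 3.67% of all genes were. Cyfip2 had 5.61 in MEF, 5.75 on day 3, 5.40 on day 7 and 5.76 on day 14, with 7.34 after sorting and 5.76 for the array labelled endogenous PV, so that sorted cells stood alone. Wasf3 had 6.98 in sorted cells, against 5.71 in MEF, a difference of 1.28 that was 0.97 after housekeeping centring.

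Among 17 relatives with cadherin domains, 1 gene was higher at day 3, at day 14, after sorting and on the array labelled endogenous PV than in MEF. Of all genes, 1.43%, 2.1%, 3.67% and 2.13% were higher in these comparisons. Clstn2, a calsyntenin of postsynaptic membranes, had 5.04 in MEF, 7.34 on day 3, 8.06 on day 7 and 7.63 on day 14, with 8.49 after sorting and 8.01 for the array labelled endogenous PV. Its difference from MEF was 2.29 at day 3 and 3.44 in sorted cells, and as for Pcdh10 only MEF lay near the floor and below its own array's median. Fat4, a giant cadherin of planar polarity, had 7.67 in MEF, 6.74 on day 3, 7.56 on day 7 and 6.42 on day 14, with 7.51 after sorting and 7.60 for the array labelled endogenous PV, lower at day 14 than in MEF by -1.25. Of 9 desmosomal cadherins 0 were called, and 7 were under the floor on all 6 arrays.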

How the data were processed

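Total RNA, 6 µg per sample, was biotinylated for Affymetrix arrays, per the labels' protocols. The authors deposited log2 intensities, made with Affymetrix Expression Console per the submitters' processing notes; the sources used here do not give the algorithm, version or genome build, and the values themselves showed the log2 scale. Of 41345 probe sets, 5333 numbered below the first annotated one were left out as controls. Exactly 1 symbol was given for 23521, several for 1814, and 10677 others were unnamed here. Each of 22180 genes was represented by its brightest probe set. Differences were taken in Python 3.11.15 (pandas 2.3.3), after raising lower values to 5.01, the median over non-control probe sets, and called at 2-fold. The counting was tested on simulated data. No test was possible with 1 array per group, and the number of arrays limits the precision. Chromosome order came from a RefSeq table of GRCm38.p6, used for neighbours only. The members and gene lists were chosen with earlier results of these data known. Named genes were every member, with values on each array for those called at least once and for some of the others, and genes of the fixed lists. Some genes of the lists are not analysed here. Alternatives were quantile normalization, housekeeping centring, no floor, a higher floor, the mean of probe sets and a 4-fold threshold.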

Additional observations from a re-analysis of the deposited data

How the results depend on the processing

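No paired analysis was possible because each group had 1 array. A floor at percentile 75 of all probe sets gave 3 called members for day 3 against MEF, where the median floor gave 7, 2 on day 14 (5), 3 after sorting (12) and 1 on the array labelled endogenous PV (7), all relative to MEF. Of all genes, 1.57%, 1.85%, 2.89% and 1.69% were called there. The 1 of 57 members on the array labelled endogenous PV was close to that background. The higher floor gave 0 for day 14 against day 7 (2), 0 for sorted against day 14 cells (3) and 0 for sorted cells against the array labelled endogenous PV (1). Of all genes, 0.672%, 0.947% and 1.35% were called in these under that floor. By its construction the higher floor raises more values. A 4-fold threshold left 1 for day 3, 1 for day 14, 2 for sorted cells and 1 for the array labelled endogenous PV, each against MEF, and 0 in the other 4 comparisons. Of all genes, 0.496%, 0.464%, 0.857% and 0.46% passed 4-fold in the comparisons with MEF. Housekeeping centring gave 1 for day 7 against day 3 (0) and 4 when the array labelled endogenous PV was set against MEF (7). Of all genes, 1.95% and 3.67% were called in these. Quantile normalization gave 1 for day 14 against day 7 (2), where 1.46% of all genes were called. Without a floor the counts were 5 for sorted against day 14 cells (3) and 2 for sorted cells against the array labelled endogenous PV (1). The shares of all genes called there were 3.39% and 3.95%. The cause was not tested for the scalings. Of the 37 called differences, 0 reversed under any of the 5 alternatives other than the threshold. They stayed at 2-fold in 34 cases after quantile normalization, 30 after housekeeping centring, 37 with no floor, 37 with the mean of probe sets and 9 with the higher floor. Removing a floor can only widen a difference, and no called member had a further probe set. The counts for no floor and for the mean of probe sets were therefore fixed in advance. Neither of these settings nor the higher floor could reverse a direction.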

Other observations

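A further probe set with 1 symbol was present for 4 members. That of Cdh2 had 7.08 in MEF, 7.52 on day 3, 6.79 on day 7 and 6.94 on day 14, with 6.93 after sorting and 6.91 for the array labelled endogenous PV. Day 3 was the highest array on both probe sets of Cdh2, but sorted cells, above MEF on the brighter one, were below MEF on this one. The further probe set of Cdh4 lay between 5.10 in MEF and 5.61 in sorted cells, and those of Cdh1 and Pcdh15 were under the floor on all 6 arrays.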
